A study of Homo sapiens with 10 samples.

Results

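The genes described here build the ribosome in the nucleolus, the nuclear compartment where ribosomal RNA is made and processed. The set holds 36 genes, chosen by name from this pathway with earlier results of these data known. Shares of members set beside the rest of the array are therefore description only. The members were found by their symbols in the platform annotation. Of these, 27 genes had at least 1 probe set carrying that symbol alone, 40 probe sets in all. A probe set is the group of short oligonucleotides that reads 1 transcript on the array. Changes were tested for the 20 genes, in 25 probe sets, that reached a log2 level of 5 on at least 2 of the 10 arrays. They are part of 2819 genes and 4276 probe sets tested across the series. Another 7 genes (GNL2, NOC3L, POLR1B, RRN3, RRP9, UTP14A and WDR43) lay below that level on too many arrays. NOP56, DKC1, BOP1 and PPAN were listed only on probe sets shared with other genes and are described apart. NOP58, NOB1, EBNA1BP2, GNL3 and LYAR had no listed probe set and were not analysed here.

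The cells were MOLT-4, an established human line from a T-cell acute lymphoblastic leukaemia. Per the labels, every one of the 10 samples, those at 0 h included, carried 10 ug/mL of MABL, an antibody against the surface protein CD47, together with 50 ug/mL of an agent given only as GAM. RNA was hybridised to Affymetrix arrays at 0 h and after 0.5, 1, 3 and 6 h, with 2 replicates each. There were no arrays of cells left without MABL for the same length of time, so time in culture and exposure to the agents cannot be told apart. The series is 1 cell line, and the labels do not say whether replicates were grown separately. A p-value here sets a difference between times only against the spread of these replicates within times. That spread may be technical. In bulk samples fewer cells of a kind and less RNA per cell cannot be told apart.

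Ribosome assembly starts when RNA polymerase I copies the ribosomal DNA into a long precursor. Small nucleolar ribonucleoproteins then guide its chemical modification, those of the box C/D class for methylation and those of the H/ACA class for pseudouridylation, and assembly factors cut, fold and pack the RNA with ribosomal proteins into the small and large subunits. Growing cells, leukaemia lines among them, spend much of their transcription on this pathway.

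Levels are square roots of what was deposited, taken as log2 intensity, so 1 unit is a 2-fold difference. Replicate arrays correlated at 0.991 to 0.994 over all tested probe sets, against 0.949 to 0.992 for arrays of unlike times. The median of the tested probe sets was lower than at 0 h by 0.13, 0.29, 0.31 and 0.25 log2 units in order of time (changes of -0.13, -0.29, -0.31 and -0.25), and comparisons are therefore also given with all arrays shifted to equal medians. The 6 control probe sets for 18S ribosomal RNA averaged 8.41 and 9.65 at 0 h and 12.01 and 11.32 at 6 h, a difference of 2.64. The 5 sets for 28S ribosomal RNA averaged 7.61 and 8.72 at 0 h and 9.87 and 10.02 at 6 h. All 8 later arrays were above both 0 h arrays for 18S and for 28S. The 18 bacterial and phage control sets also averaged above 0 h, by 0.27, 0.25, 0.76 and 0.63 in order of time, while the tested median was lower. The extract was total RNA, and these control levels are array values, not a measure of ribosome production. Of 17 T-lineage markers 13 were above the filter, led by TRBC1 at 14.09 and CD3D at 12.42, while CD2, CD4, CD7 and CD8A were below it. None of 4 B-cell, 5 myeloid or 1 erythroid markers passed, and of 3 fibroblast markers only COL1A1 did, at 5.24.

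**Figure D1:**
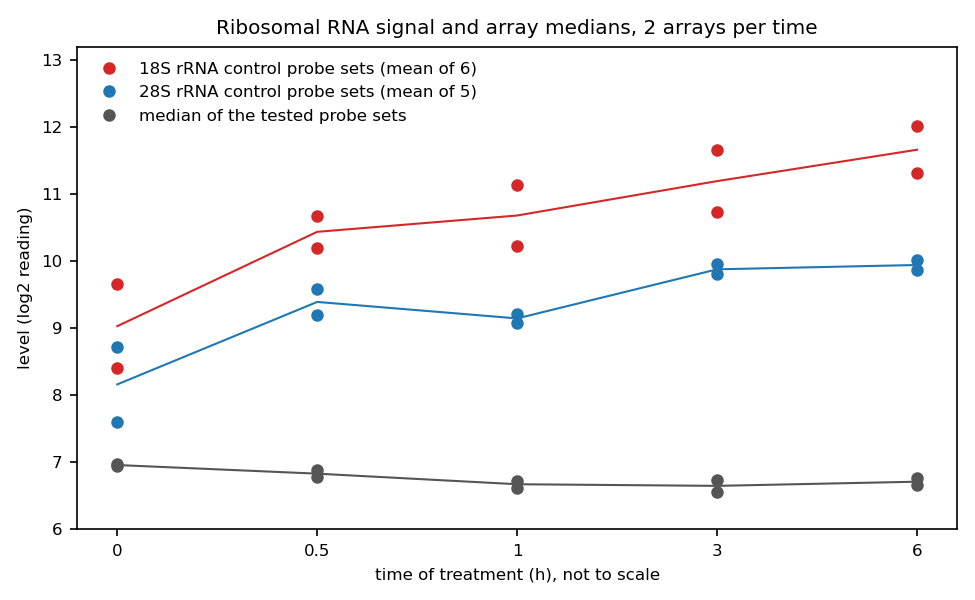
Mean log2 level of the 18S and 28S ribosomal RNA control probe sets on each array, against time (h, not to scale); each point is 1 of 2 replicates. The line below them is the median of the tested probe sets, and lines join the means. The 18S points run from 8.41 and 9.65 at 0 h to 12.01 and 11.32 at 6 h.

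The members' probe sets passed the filter more often than those of the array as a whole. Of the members' 40 probe sets 25, or 62.5%, passed the filter, against 19.2% of all 22215 probe sets. The 20 tested genes had a median level of 8.14 at 0 h, from 4.94 for UBTF to 11.46 for NPM1, and the median of all tested genes was 6.89. These levels are not corrected for differences between probe sets, so the order among genes is not read. The 7 genes below the filter, in 8 probe sets, lay between 2.79 and 4.91 on every array.

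Against 0 h, 2 of the 20 genes were called lower and 1 higher at 0.5 h, 5 and 1 at 1 h, then 6 and 1 at 3 h, and 7 lower with 0 higher at 6 h, each in its brightest probe set (limma, adjusted p under 0.05 over all tested probe sets). Of all 2819 tested genes 13.8%, 22.6%, 25.8% and 20.4% were called lower in order of time, while 1.7%, 4.04%, 2.34% and 4.4% were called higher. At 6 h no member was higher at an unadjusted p under 0.05 either (0 of 20). The members' shares called lower were 10%, 25%, 30% and 35%. These were near the background at the first 3 times and above it at 6 h, a difference that was not tested. Of 59 other genes of the pathway 22% were called lower at 6 h. In order of time, the members' median change was -0.02, -0.04, -0.26 and -0.41, beside 0.03, -0.01, -0.14 and -0.13 for all tested genes. Over the 25 probe sets, the counts called lower were 5, 8, 8 and 9 in order of time, against a background of 15.1%, 24.2%, 26.4% and 21.6%, and 1, 1, 1 and 0 were called higher, against 1.92%, 4.14%, 2.53% and 4.07%. With equal array medians 2, 3, 4 and 5 genes were called lower in order of time and 1, 6, 5 and 1 higher. The background then was 14.4%, 17.9%, 17.4% and 13.5% lower and 7.13%, 32.8%, 23.5% and 14.8% higher. The balance of lower and higher calls at 1 and 3 h thus turned on the scaling, for the members as for all genes.

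The 18S level differed between 0 h and all later times. With that level as a covariate, limma called 0 of the 23 changes against 0 h that were called without it in the members' brightest probe sets, with adjusted p between 0.0514 and 0.929, and the members' median standard error rose from 0.15 to between 0.21 and 0.31. At an unadjusted p under 0.05 that fit left 3, 3, 2 and 5 of the 20 members in order of time. Across all tested probe sets, the same fit called 9, 87, 0 and 6 at the 4 times, and 629, 849, 489 and 429 had an unadjusted p under 0.05. The calls against 0 h given below in those probe sets are from the fit without this covariate.

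**Figure D2:**
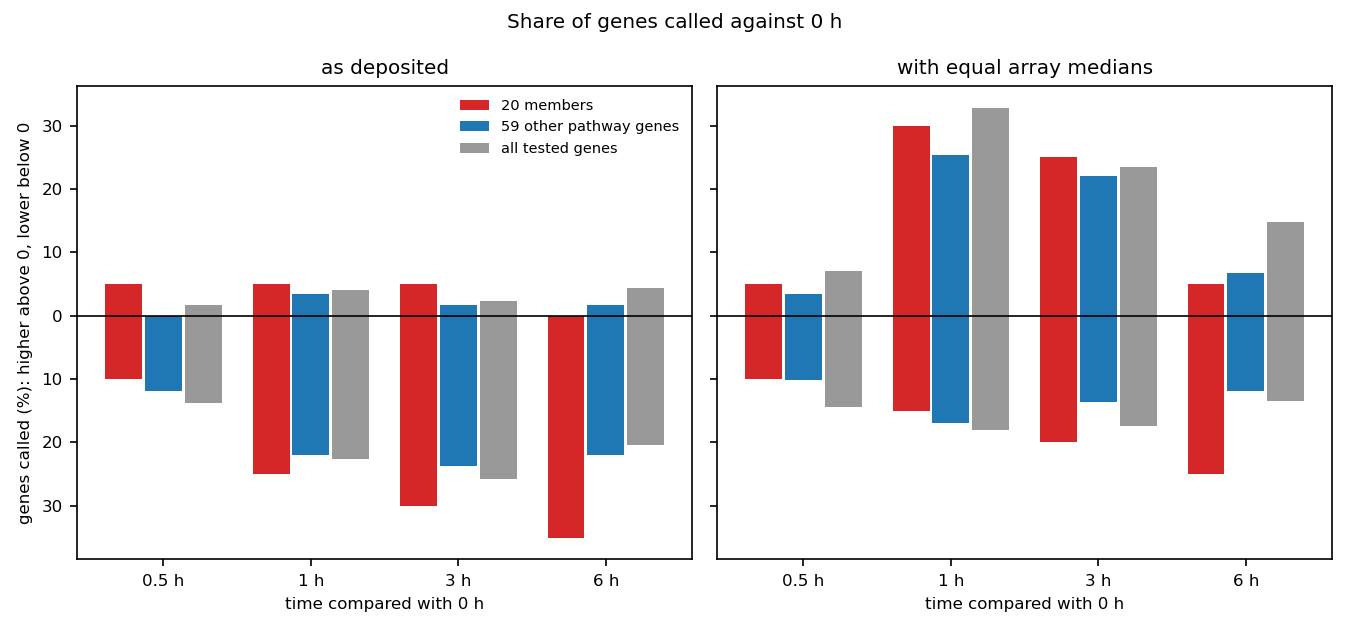
Share of genes (percent) called lower or higher against 0 h at each time (h), for the 20 tested members, 59 other pathway genes and all tested genes; bars above 0 are genes called higher and bars below 0 lower, as deposited (left) and with equal array medians (right). As deposited, the members' share called lower at 6 h is 35% against 20.4%.

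The tested nucleolar chaperones and scaffolds had their lowest means before 6 h, NPM1 at 1 h and NCL and NOLC1 at 3 h. Of NPM1, NCL and NOLC1, the 3 tested genes of this role, 2 were called lower at 0.5 h (NPM1 and NOLC1), 3 at 1 h, 3 at 3 h and 1, NOLC1, at 6 h, against the background of 13.8%, 22.6%, 25.8% and 20.4% of all tested genes. With equal medians 2 of 3 were called lower at 0.5 h (NPM1 and NOLC1), 1 at 1 h (NPM1), 3 at 3 h and 1 at 6 h (NOLC1). The background in that setting was 14.4%, 17.9%, 17.4% and 13.5% of all tested genes.

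NPM1 encodes nucleophosmin, an abundant nucleolar chaperone that shuttles to the cytoplasm and is often mutated in acute myeloid leukaemia. Its brightest probe set, 200063_s_at, stood at 11.66 and 11.27 at 0 h, 10.15 and 9.99 at 0.5 h, 9.86 and 9.82 at 1 h, 10.96 and 10.40 at 3 h, and 11.41 and 11.46 at 6 h. The arrays at 0.5 and 1 h were all below those at every other time, and those at 6 h lay within the range of 0 h. The change was -1.40 (SE 0.20, adjusted p = 0.00492) at 0.5 h and -1.62 (adjusted p = 0.00113) at 1 h, or 38% and 32.5% of the level at 0 h. It was -0.79 (adjusted p = 0.0203) at 3 h and -0.03 (adjusted p = 0.943) at 6 h. From 1 h to 6 h NPM1 rose by 1.59 (adjusted p = 0.00122). The call at 3 h was lost without 0 h replicate 1 (adjusted p = 0.135), without 3 h replicate 2 (0.104) and with no filter (0.117).

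The other probe sets of NPM1 moved with the first. 221691_x_at read 10.65 and 10.32, then 9.19 and 8.998, 8.72 and 8.69, 9.95 and 9.53, and 10.44 and 10.49 over the 5 times, and 221923_s_at read 7.69 and 7.42, 6.68 and 6.47, 5.92 and 6.22, 7.38 and 7.04, and 7.66 and 8.05. At 1 h they differed from 0 h by -1.78 (adjusted p = 0.000762) and -1.48 (adjusted p = 0.00128). From 1 h to 3 h they rose by 1.04 (adjusted p = 0.0233) and 1.14 (adjusted p = 0.0254). Each of these calls was lost in 4 of 18 alternatives, and the brightest set was not called over that step. The 3 sets correlated at 0.953 to 0.995 over the 10 arrays, which they share. The _s_at and _x_at suffixes mark probe sets that may bind other near-identical transcripts, and NPM1 has processed copies in the genome, so the values cannot be assigned to NPM1 alone.

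NCL encodes nucleolin, an RNA-binding protein of the nucleolus that acts in precursor transcription and early processing. Probe set 200610_s_at stood at 10.04 and 9.91 at 0 h, 9.48 and 9.44 at 0.5 h, 9.49 and 9.40 at 1 h, 9.02 and 8.58 at 3 h, and 9.56 and 9.73 at 6 h. Its lowest arrays were those of 3 h, later than for NPM1, and all later arrays were below both at 0 h. The change was -1.17 (adjusted p = 0.00247) at 3 h, 44.4% of the level at 0 h, and -0.33 (adjusted p = 0.15) at 6 h. The change at 1 h, -0.52 (SE 0.15, adjusted p = 0.0332), lost its call with equal medians (adjusted p = 0.136), with no filter (0.139), on another scale (0.0655) and without any 1 of the 6 arrays of 0, 0.5 and 1 h (0.0526 to 0.17). From 3 h to 6 h NCL rose by 0.84 (adjusted p = 0.0168), a call lost with no filter (0.0966) and without replicate 2 of 3 h (0.0577) or of 6 h (0.0896).

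NOLC1 encodes Nopp140, a scaffold that binds both classes of small nucleolar ribonucleoprotein. Probe set 211951_at stood at 8.93 and 8.76 at 0 h, 8.28 and 7.91 at 0.5 h, 8.36 and 8.19 at 1 h, 7.23 and 7.48 at 3 h, and 7.80 and 7.91 at 6 h. Every later array was below both at 0 h, and those at 3 h were the lowest. The change was -1.49 (adjusted p = 0.00184) at 3 h, 35.5% of the level at 0 h, and -0.99 (adjusted p = 0.00391) at 6 h. From 1 h to 3 h it was -0.93 (adjusted p = 0.0254). In brightest probe sets it was the 1 call among the 20 members, against 2.16% of genes called lower and 1.67% higher. With no filter (0.14) and without either array of 1 h (0.127 and 0.0836) or 3 h replicate 1 (0.0783) it was lost.

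The earlier calls of NOLC1 were less stable. The change of -0.75 (SE 0.15, adjusted p = 0.0147) at 0.5 h was no longer called with no filter (0.0795) or without 0 h replicate 1 (0.109) or 0.5 h replicate 2 (0.1). The change of -0.57 (adjusted p = 0.0263) at 1 h lost it with equal medians (0.145), with quantile normalization (0.0899), with no filter (0.121) and without either array of 0 h (0.154 and 0.0508) or 1 h (0.0535 and 0.139). A second probe set, 205895_s_at, stood at 5.89 and 5.65 at 0 h and between 4.24 and 5.05 on the later arrays, near the filter. It reached the filter level on 3 arrays. This set was called lower at 0.5, 1, 3 and 6 h, with changes of -0.91, -1.09, -1.33 and -1.15 (adjusted p = 0.0112, 0.00263, 0.0025 and 0.00356). The call at 0.5 h was lost in 4 of 17 alternatives. Each later call was lost in 1 of 17, the fit with the 18S level as a covariate. It correlated with the first at 0.844 over the 10 arrays.

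The tested members that act in transcription of ribosomal DNA had levels near the filter. POLR1C, a subunit shared by RNA polymerases I and III, lay between 4.81 and 5.70 on the 10 arrays, and UBTF, the factor that opens the ribosomal DNA promoter, between 4.66 and 5.13. Neither was called at any time, and POLR1C had its largest change, -0.49 (adjusted p = 0.0704), at 6 h. POLR1B, the second-largest subunit of polymerase I, and RRN3, which recruits that polymerase, were among the genes below the filter, so no change in them was readable.

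Of the box C/D class, FBL was the 1 member with a tested probe set of its own. FBL encodes fibrillarin, the methyltransferase of this class. Probe set 211623_s_at stood at 11.28 and 11.12 at 0 h and between 11.03 and 11.39 on the 8 later arrays. The arrays of 0.5 and 1 h were just above both of 0 h, those of 3 and 6 h overlapped them, and no change was called. The largest difference in level, 0.15, was at 0.5 h, and at 1 h the change was 0.12 (adjusted p = 0.507), or 0.41 (adjusted p = 0.0284) with equal medians.

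Of the H/ACA class 3 members were tested, and they went apart. NHP2, a core protein of these particles and of telomerase, was the 1 member called higher than at 0 h on the scale as deposited. Probe set 209104_s_at stood at 10.78 and 10.88 at 0 h, 11.28 and 11.41 at 0.5 h, 11.37 and 11.39 at 1 h, 11.26 and 11.17 at 3 h, and 11.18 and 10.97 at 6 h. All 8 later arrays were above both at 0 h. The change was 0.52 (SE 0.11, adjusted p = 0.0164) at 0.5 h, 0.55 (adjusted p = 0.00694) at 1 h, 0.39 (adjusted p = 0.0321) at 3 h and 0.24 (adjusted p = 0.138) at 6 h, so the level at 1 h was 146% of that at 0 h. Without 0 h replicate 1 the adjusted p was 0.109, 0.0529 and 0.157 at the first 3 later times, and without 0.5 h replicate 2 it was 0.111 at 0.5 h. The call at 3 h was also lost without 0 h replicate 2 (0.0667) or either array of 3 h (0.11 and 0.0842), with no filter (0.065) and on another scale (0.0702). With equal medians the change at 6 h was 0.49 (adjusted p = 0.0287).

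GAR1 and NOP10, further core proteins of that class, had their lowest means at 6 h. GAR1, in 219110_at, stood at 9.18 and 9.13 at 0 h, 9.15 and 9.01 at 0.5 h, 9.10 and 9.27 at 1 h, 9.05 and 8.93 at 3 h, and 8.82 and 8.65 at 6 h. Its change at 6 h was -0.42 (SE 0.12, adjusted p = 0.0304), and with equal medians -0.17 (adjusted p = 0.373). The call was also lost without either array of 0 h (0.14 and 0.0764) or of 6 h (0.0563 and 0.131), with quantile normalization (0.277) and with no filter (0.0723). NOP10, in 217962_at, lay between 9.54 and 9.83 on the arrays of 0, 0.5 and 1 h and at 9.33 and 9.25 at 6 h, and its change at 6 h, -0.39, did not pass (adjusted p = 0.0584).

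The 3 tested members of small subunit assembly gave no call as deposited with time alone fitted. Of all tested genes 13.8%, 22.6%, 25.8% and 20.4% were called lower in order of time. Among the other pathway genes of this role 3 of 21 were called lower at 1 h and 4 at 6 h. BYSL, IMP4 and TSR1, which help pack and mature the small subunit, were tested, and 0 of 3 passed against 0 h at any time, nor did any have an unadjusted p under 0.05 in limma. The largest change was that of BYSL at 6 h, -0.42 (adjusted p = 0.129), with arrays at 7.66 and 7.23 against 7.95 and 7.78 at 0 h. With a replicate block added to the fit, limma called this change of BYSL (adjusted p = 0.0377). IMP4 lay between 7.83 and 8.13 and TSR1, in 218155_x_at, between 7.60 and 8.07 on all arrays. UTP14A, RRP9 and WDR43, of the same role, were below the filter. With equal medians IMP4 was called higher at 1 h (0.35, adjusted p = 0.0484) and at 3 h (0.39, adjusted p = 0.0423), and BYSL at 3 h (0.47, adjusted p = 0.0454); quantile normalization called both at 3 h too (adjusted p = 0.046 and 0.0457).

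Large subunit assembly held most of the late falls. Of its 8 tested genes 5 were called lower at 6 h (MRTO4, NOP16, NIP7, RRP1B and RRS1) and none higher, with a median change of -0.91, against 20.4% of all tested genes called lower. Among the other pathway genes of this role the count at 6 h was 7 of 24, or 29.2%, with a median change of -0.30. At 1 h 2 of the 8 were called lower, NIP7 and WDR12.

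MRTO4 encodes a placeholder that sits on the large subunit until the ribosomal stalk protein replaces it. Probe set 220688_s_at stood at 8.52 and 8.41 at 0 h, 8.58 and 8.61 at 0.5 h, 8.71 and 8.42 at 1 h, 8.26 and 8.11 at 3 h, and 7.20 and 7.41 at 6 h. The 6 h arrays stood apart below all 8 others. The change at 1 h was 0.10 (adjusted p = 0.617), or 0.39 (adjusted p = 0.0269) with equal medians. It was -1.16 (SE 0.13, adjusted p = 0.0013) at 6 h, 44.8% of the level at 0 h, and -0.88 (adjusted p = 0.00777) from 3 h to 6 h, a step over which 3 members were called lower and 1 higher, against 2.02% and 5.57% of all tested genes.

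NOP16, a nucleolar factor of large subunit assembly, had the same late timing in both of its tested probe sets. Probe set 214011_s_at stood at 8.47 and 8.44 at 0 h, 8.37 and 8.34 at 0.5 h, 8.47 and 8.37 at 1 h, 8.24 and 8.07 at 3 h, and 7.26 and 7.35 at 6 h. Probe set 203023_at stood at 8.15 and 7.88, 8.07 and 7.96, 8.10 and 8.01, 7.81 and 7.75, and 6.81 and 6.69 at those times. In each set the 6 h arrays were below all others, by changes against 0 h of -1.15 (SE 0.10, adjusted p = 0.000623) and -1.27 (adjusted p = 0.000749). From 3 h to 6 h the changes were -0.85 (adjusted p = 0.00369) and -1.03 (adjusted p = 0.00327). The sets correlated at 0.984 over the 10 arrays, and 2 further probe sets of NOP16 were below the filter. NOP16 and MRTO4, read by different probe sets on the shared arrays, correlated at 0.980. This was the highest value among pairs of tested members in their brightest probe sets. The lowest was -0.865, for NHP2 and NPM1.

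NIP7, needed for large subunit RNA processing, fell in steps. Probe set 219031_s_at stood at 6.61 and 6.88 at 0 h, 6.76 and 6.56 at 0.5 h, 5.88 and 6.08 at 1 h, 6.02 and 5.95 at 3 h, and 4.82 and 5.35 at 6 h. The arrays at 1 and 3 h lay between those of the first 2 times and those of 6 h, with no overlap. At 6 h the change was -1.66 (adjusted p = 0.00128), or 31.6% of the level at 0 h, the lowest share among the tested members at that time. From 3 h to 6 h it was -0.90 (adjusted p = 0.0273), lost with no filter (0.173), without either array of 3 h (0.0707 and 0.102) and without 6 h replicate 1 (0.0834). At 1 h it was -0.77 (SE 0.19, adjusted p = 0.0163), a call lost with no filter (0.0994), without 0 h replicate 2 (0.0912) and without either array of 1 h (0.0922 and 0.051). At 3 h it was -0.76 (adjusted p = 0.0184), lost without either array of 0 h (0.0535 and 0.0947) or 3 h replicate 2 (0.089), with equal medians (0.056), with quantile normalization (0.0612) and with no filter (0.106).

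WDR12, which forms a complex with PES1 and BOP1 in large subunit processing, was lowest early. Probe set 218512_at stood at 7.15 and 6.88 at 0 h, 6.34 and 6.47 at 0.5 h, 5.77 and 5.63 at 1 h, 6.58 and 5.72 at 3 h, and 6.58 and 6.49 at 6 h. All later arrays were below both at 0 h, and the replicates at 3 h lay far apart. The change at 1 h was -1.31 (SE 0.25, adjusted p = 0.00549), 40.2% of the level at 0 h, and lost its call with no filter (0.0546). The change of -0.87 at 3 h (adjusted p = 0.032) lost its call in 11 of 17 alternatives, among them without either array of 0 h (0.174 and 0.0629) or 3 h replicate 2 (0.109) and without any 1 array of 0.5 or 1 h (0.0501 or 0.0518). Its partner PES1 lay between 5.85 and 6.70 and was called at no time.

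RRP1B and RRS1 were lower at 6 h. RRP1B, a nucleolar protein of the RRP1 family, stood in 212846_at at 8.47 and 8.15 at 0 h, 8.59 and 7.92 at 0.5 h, 7.82 and 7.60 at 1 h, 7.71 and 7.36 at 3 h, and 7.06 and 7.34 at 6 h. The change at 6 h was -1.11 (adjusted p = 0.0127), lost with no filter (0.094) and without replicate 1 of 0 h (0.0916) or of 6 h (0.0804). The change at 3 h, -0.77 (SE 0.24, adjusted p = 0.0444), lost its call in 12 of 18 alternatives, among them without either array of 0 h (0.229 and 0.0663) or 3 h replicate 2 (0.211), without any 1 array of 1 h (0.0646) or 6 h (0.056) and with equal medians (0.0637). Its second probe set, 212844_at, did not follow it: this set lay between 4.83 and 5.39 on all arrays, near the filter, was called at no time and correlated with the first at -0.082.

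RRS1, which brings 5S ribosomal RNA into the large subunit, stood in 209567_at at 7.08 and 7.23 at 0 h, 7.61 and 7.30 at 0.5 h, 6.94 and 6.88 at 1 h, 6.85 and 6.64 at 3 h, and 6.64 and 6.26 at 6 h. Its arrays at 1, 3 and 6 h were all below those at 0 h. The change at 6 h was -0.70 (SE 0.16, adjusted p = 0.016), 61.4% of the level at 0 h. The call was lost with equal medians (0.0591), with quantile normalization (0.064), with no filter (0.0882) and without either array of 0 h (0.0621 and 0.0764) or 6 h replicate 2 (0.075). NOC2L, the remaining tested gene of this role, lay between 6.09 and 6.48 and was called at no time.

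**Figure D3:**
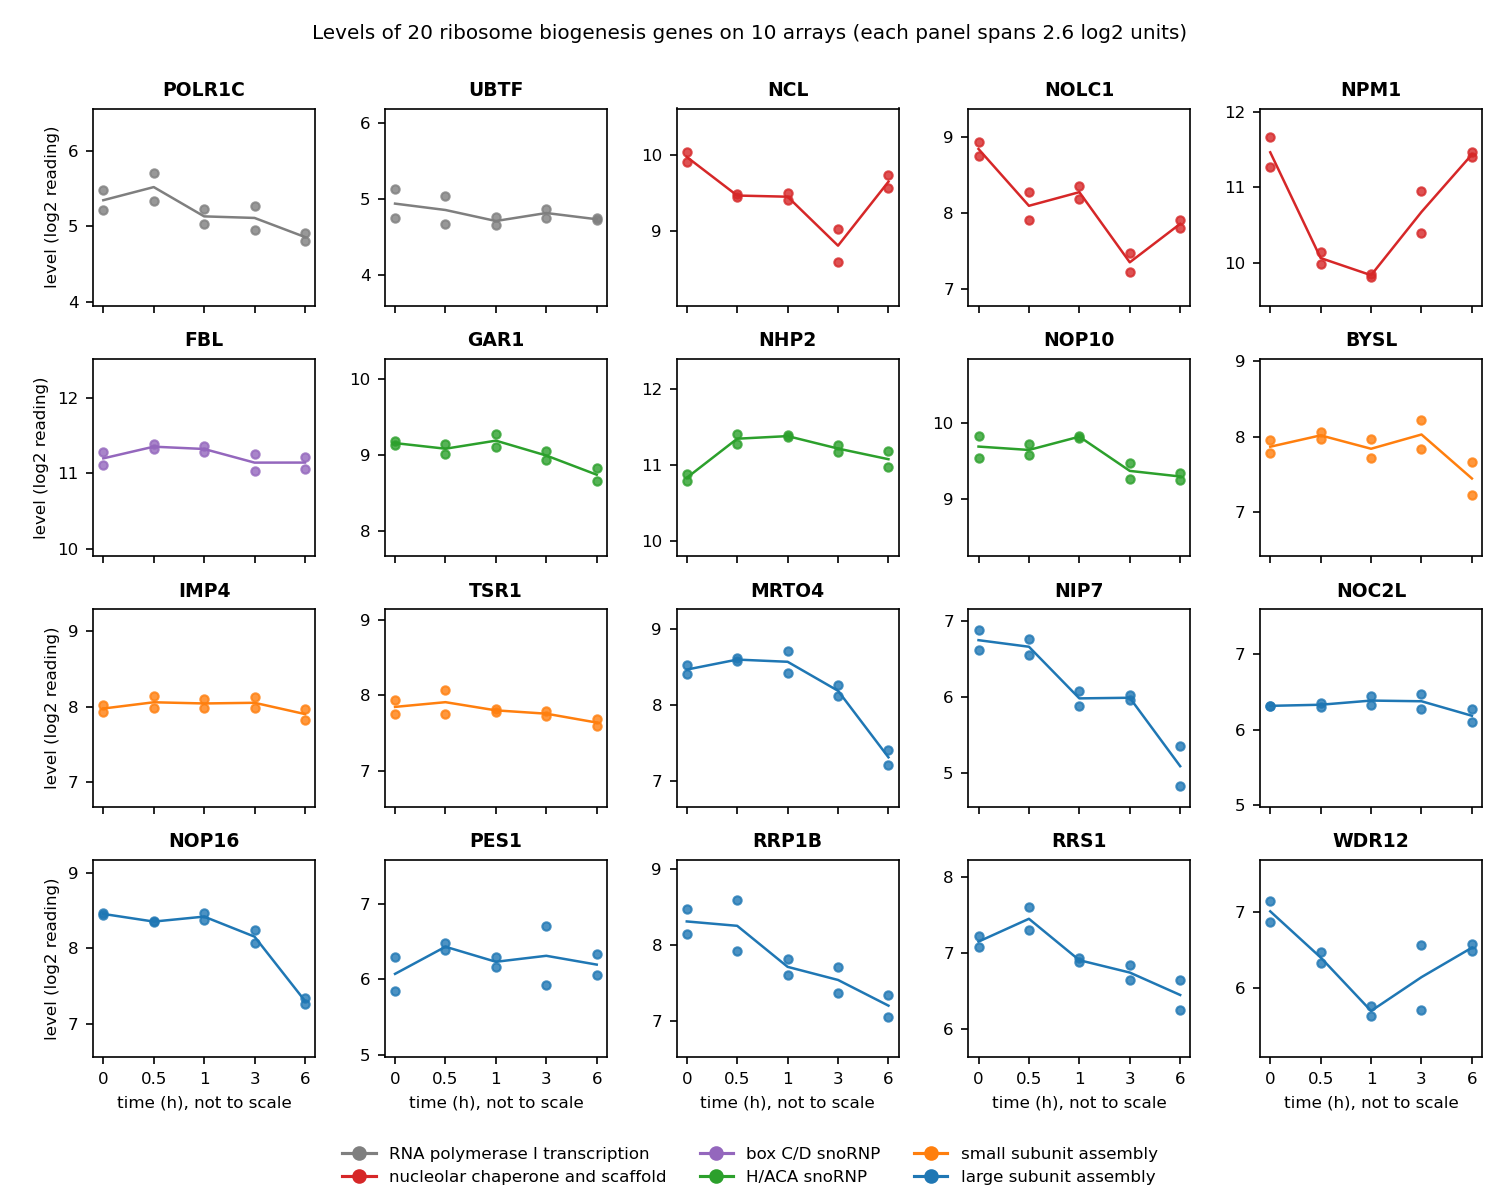
Log2 level of tested members on each array against time (h, not to scale), 1 panel per gene in its brightest probe set; points are the 2 replicates and lines join their means. NPM1 is lowest at 1 h and back at 11.41 and 11.46 at 6 h, while MRTO4, NOP16 and NIP7 are lowest at 6 h.

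With time alone fitted, the estimated change from 1 h to 6 h uses no array of 0 h. Its SE and p-value still draw on the spread within times over all 10 arrays, those of 0 h included. Of the 20 genes 5 were called lower at 6 h than at 1 h and 2 higher, against 12.2% and 12.1% of all tested genes. Over the 25 probe sets, 6 were lower and 4 higher, against 11.7% and 12.2%. The lower genes were NOP16 with -1.11 (adjusted p = 0.000409), MRTO4 with -1.26 (adjusted p = 0.000667), NIP7 with -0.89 (adjusted p = 0.011), GAR1 with -0.45 (adjusted p = 0.025) and NOP10 with -0.53 (SE 0.13, adjusted p = 0.0232). NPM1 was higher by 1.59, and WDR12 by 0.83 (adjusted p = 0.0424). With the 18S level as a covariate 4 of these 7 calls remained: NPM1 at 1.86 (adjusted p = 0.00104), NOP16 at -1.07 (adjusted p = 0.00249), MRTO4 at -1.22 (adjusted p = 0.00373) and WDR12 at 1.05 (adjusted p = 0.0438). No alternative ended the calls of NPM1, NOP16 and MRTO4 in this comparison, or those of NOP16 and MRTO4 from 3 h to 6 h. Each of the 23 calls against 0 h in a brightest probe set was ended by at least 1.

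The other calls from 1 h to 6 h were less stable. NIP7 lost its call with no filter (adjusted p = 0.0871), without 1 h replicate 2 (0.0654) and with the covariate (0.0554). GAR1 lost it without replicate 2 of 1 h (0.123) or of 6 h (0.129), with quantile normalization (0.0518) and with no filter (0.0715). NOP10 lost it without any 1 array of 1 or 6 h (0.0583 to 0.107) and with no filter (0.0962). WDR12 lost it without any 1 array of 0, 0.5, 1 or 6 h (0.0606 to 0.162), with no filter (0.28) and on another scale (0.055).

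**Figure D4:**
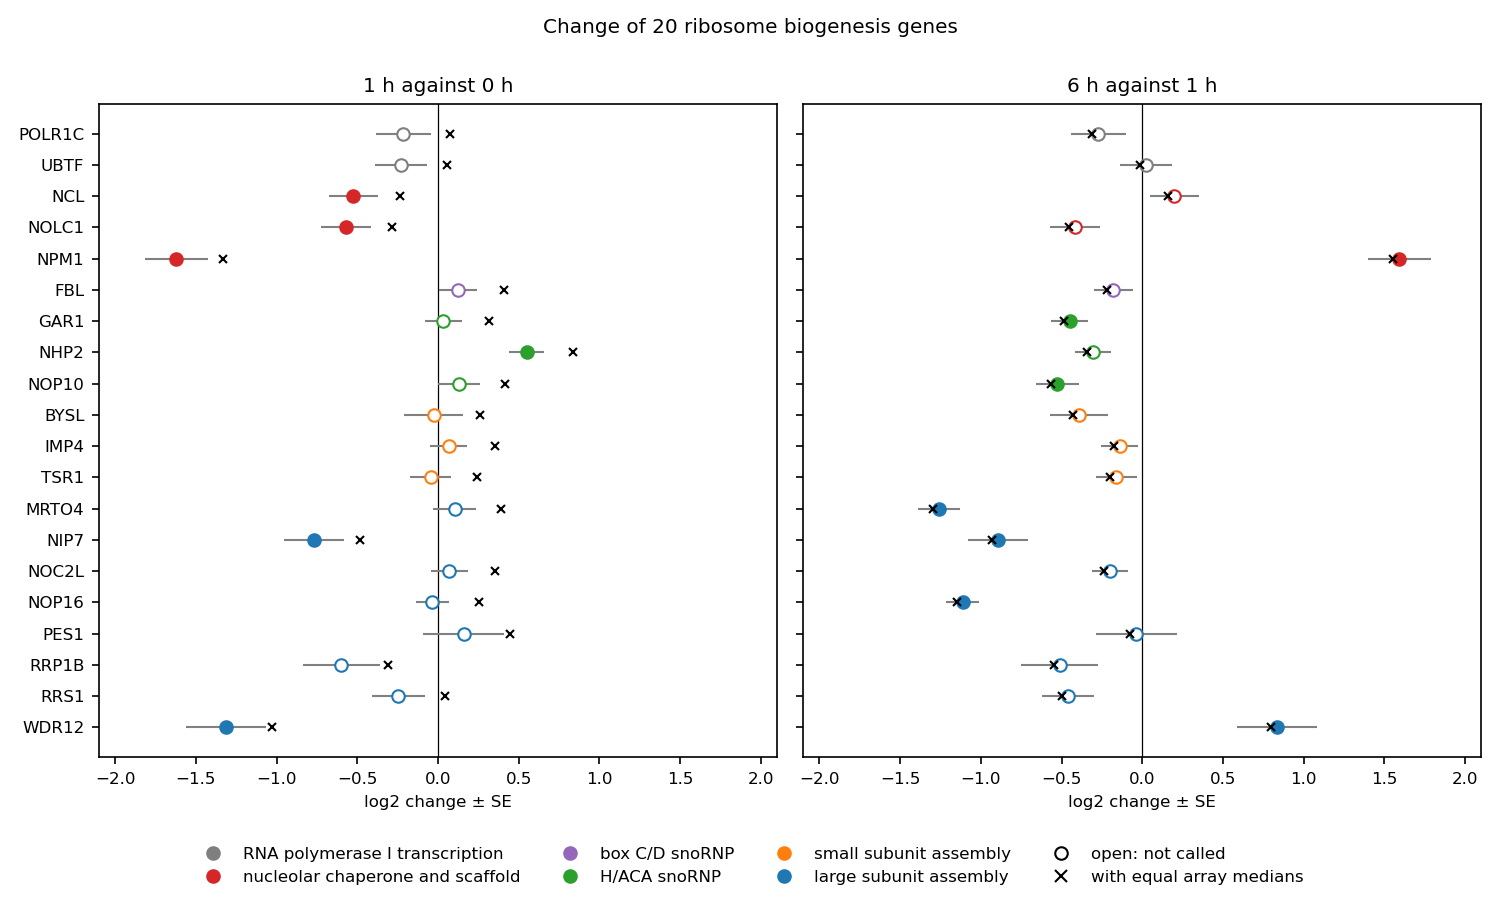
Log2 change of each tested member in its brightest probe set, from 0 h to 1 h (left) and from 1 h to 6 h (right), with bars of 1 SE, coloured by role; open points were not called, and crosses give the change with equal array medians. NPM1 is at -1.62 on the left and 1.59 on the right, and MRTO4 at 0.10 and -1.26.

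For 12 of the 20 members, or 60%, the mean level was lowest at 6 h, beside 32% of all tested genes. With equal medians these were 9 members, or 45%, and 21.5%. In all, 11 genes were called against 0 h at 1 or more times, and 11 of 20 passed the F test over the 5 times, against 38.9% of all tested genes. The F test called 15 of 25 member probe sets, against 39.6%. The 9 never called against 0 h were BYSL, FBL, IMP4, NOC2L, NOP10, PES1, POLR1C, TSR1 and UBTF, with changes against 0 h between -0.49 and 0.36. With equal medians 6 of these 9 were called higher at 1 or more times, and 0 lower. In that setting 7.13%, 32.8%, 23.5% and 14.8% of all tested genes were called higher in order of time. The 9 were picked for having no call as deposited, where most calls were lower.

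The promoters of members with different timing are shown from RefSeq, build GRCh38.p14, as the 250 bases before the gene's start on the gene's strand. NIP7, NOP16 and MRTO4 stand for the late falls, NPM1 for the early fall with return and NHP2 for the rise. Capitals mark the letters CCGGAAG, a core that ETS-family factors bind, and CCAAT, each searched on both strands, where the first reads CTTCCGG and the second ATTGG. The windows lie at chr16:69339522-69339771 (plus strand) for NIP7, chr5:176388599-176388848 (minus) for NOP16, chr1:19251555-19251804 (plus) for MRTO4, chr5:171386866-171387115 (plus) for NPM1 and chr5:178153886-178154135 (minus) for NHP2.
NIP7: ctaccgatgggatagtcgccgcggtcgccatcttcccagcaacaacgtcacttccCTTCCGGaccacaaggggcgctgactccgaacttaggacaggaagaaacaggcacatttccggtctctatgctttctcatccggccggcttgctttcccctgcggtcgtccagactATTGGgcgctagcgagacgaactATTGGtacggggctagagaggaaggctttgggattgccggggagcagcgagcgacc
NOP16: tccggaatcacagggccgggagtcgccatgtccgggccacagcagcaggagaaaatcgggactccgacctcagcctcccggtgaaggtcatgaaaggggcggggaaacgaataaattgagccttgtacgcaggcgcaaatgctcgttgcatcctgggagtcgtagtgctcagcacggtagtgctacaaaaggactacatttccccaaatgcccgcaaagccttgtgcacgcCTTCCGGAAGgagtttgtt
MRTO4: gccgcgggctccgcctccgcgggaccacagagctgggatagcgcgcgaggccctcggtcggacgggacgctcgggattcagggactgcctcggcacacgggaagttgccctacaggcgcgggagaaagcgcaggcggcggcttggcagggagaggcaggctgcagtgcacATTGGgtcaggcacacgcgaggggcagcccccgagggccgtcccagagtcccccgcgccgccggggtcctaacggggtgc
NPM1: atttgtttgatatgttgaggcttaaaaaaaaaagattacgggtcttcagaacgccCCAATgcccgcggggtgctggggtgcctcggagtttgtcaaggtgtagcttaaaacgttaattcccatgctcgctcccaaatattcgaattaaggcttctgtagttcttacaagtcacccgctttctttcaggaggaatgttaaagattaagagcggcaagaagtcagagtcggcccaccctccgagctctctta
NHP2: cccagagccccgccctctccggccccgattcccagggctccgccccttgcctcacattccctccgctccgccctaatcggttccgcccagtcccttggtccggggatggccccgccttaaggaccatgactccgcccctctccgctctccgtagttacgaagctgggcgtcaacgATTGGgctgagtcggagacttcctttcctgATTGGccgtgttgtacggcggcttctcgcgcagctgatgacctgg

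NIP7 had CCGGAAG 195 bases before its start and CCAAT at 79 and 56. NOP16 had 2 overlapping matches of CCGGAAG at 19 and 16 bases and no CCAAT. MRTO4, NPM1 and NHP2 had no CCGGAAG but held CCAAT, at 80 bases for MRTO4, at 195 for NPM1, and at 75 and 45 for NHP2. The members with late falls thus did not share 1 of these letters in the window, and CCAAT was present beside each of the 3 timings.

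Of the 36 members 31 had a promoter in the table. CCGGAAG was in 14 of these 31, or 45.2%, beside 23.3% of 2392 tested genes and 10.2% of all 27305 genes of the table. Among tested members it stood before FBL, GAR1, NIP7, NOC2L, NOP10, NOP16, POLR1C and TSR1. Of these, GAR1, NIP7 and NOP16 were called lower at 6 h, NIP7 also at 1 and 3 h, and none at 0.5 h. Among all 20 tested members 35% were called lower at 6 h and 10% at 0.5 h, against 20.4% and 13.8% of all tested genes. A link between these letters and the timing was not tested. CCAAT was in 14, or 45.2%, beside 45.5% and 37%. The E-box CACGTG, which MYC family factors bind, was in 5, or 16.1%, beside 12.9% and 7.73%, and the core bound by NRF1 in 2, or 6.45%, beside 2.88% and 1.28%. Over all 35116 windows of that length the shares were 8.52%, 32%, 6.34% and 1.03% for these motifs in that order. The median GC content was 64.8% in the members' windows and 64.8% in those of tested genes. A match is a string of letters, not a binding site shown by these data.

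The probe sets of NOP56, DKC1 and BOP1 are annotated together with small RNA genes, and that of PPAN with the read-through gene PPAN-P2RY11, so their values cannot be assigned to 1 gene. NOP56, a core protein of the box C/D class, was read in 200875_s_at at 10.33 and 10.15 at 0 h, 9.82 and 9.81 at 0.5 h, 9.49 and 9.44 at 1 h, 9.61 and 9.45 at 3 h, and 9.43 and 9.54 at 6 h. All later arrays were below both at 0 h, and the changes were -0.78 (adjusted p = 0.00165) at 1 h and -0.75 (adjusted p = 0.00303) at 6 h. At 0.5 h the change was -0.43 (adjusted p = 0.0309), lost without 0 h replicate 1 (0.187) or either array of 0.5 h (0.1 and 0.138) and with equal medians (0.0992). Its second shared set, 200874_s_at, was called at no time.

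DKC1, the pseudouridine synthase of the H/ACA class, whose mutation causes dyskeratosis congenita, was read in 201479_at at 8.37 and 8.01 at 0 h, 7.62 and 7.31 at 0.5 h, 7.24 and 6.97 at 1 h, 7.59 and 6.83 at 3 h, and 6.60 and 7.21 at 6 h. All later arrays were below both at 0 h, and the replicates at 3 and 6 h lay apart. The change was -1.09 (adjusted p = 0.025) at 1 h and -1.29 (adjusted p = 0.0147) at 6 h. Without 0 h replicate 1 the adjusted p was 0.155 and 0.101. The call at 1 h was also lost without either array of 1 h (0.0607 and 0.135), and that at 6 h without 6 h replicate 1 (0.0946). At 3 h the change in 201479_at was -0.98 (adjusted p = 0.0372), a call lost in 10 of 18 alternatives. A second shared set, 201478_s_at, stood at 5.90 and 5.86 at 0 h and between 4.47 and 5.22 on the later arrays, near the filter. It reached the filter level on 4 arrays. This set was called lower at all 4 times, with changes between -1.12 and -0.87. Its call at 0.5 h was lost without any 1 array of 0 or 0.5 h (0.0659 to 0.109), that at 1 h without 1 h replicate 2 (0.0522), that at 3 h without either array of 0 h (0.0922 and 0.061) or 3 h replicate 2 (0.105), and that at 6 h without 0 h replicate 1 (0.0511). With no filter all 4 were lost (0.0542 to 0.119). Another set, 216212_s_at, was called at no time. BOP1 was called at no time in its shared sets, and those of PPAN were not tested.

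Other genes of the pathway were taken from a list of 139, of which 59 were tested. In order of time 7, 13, 14 and 13 of them were called lower and 0, 2, 1 and 1 higher, with median changes of -0.01, -0.03, -0.15 and -0.29. The shares called lower, 11.9%, 22%, 23.7% and 22%, were near the background of 13.8%, 22.6%, 25.8% and 20.4%. By role, 5 of 11 genes of ribosomal RNA trimming and the exosome were lower at 1 h, 3 of 21 of small subunit assembly and 4 of 24 of large subunit assembly, against 22.6% of all tested genes. At 6 h these counts were 2, 4 and 7. With equal medians 3 of the 11 trimming and exosome genes were lower and 3 higher at 1 h. With equal medians the counts were 6, 10, 8 and 7 lower and 2, 15, 13 and 4 higher.

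Among large subunit factors, NSA2 and RSL24D1 followed a course like that of NPM1. NSA2 had mean levels of 8.40, 7.19, 6.91, 7.49 and 8.44 over the 5 times, and RSL24D1 of 8.01, 6.77, 6.28, 7.06 and 8.07. At 1 h the changes were -1.49 (adjusted p = 0.00175) and -1.73 (SE 0.25, adjusted p = 0.00179), and from 1 h to 6 h NSA2 rose by 1.53 (adjusted p = 0.00203) and RSL24D1 by 1.79 (adjusted p = 0.00203). RSL1D1, a nucleolar protein with a ribosomal L1 domain, and UTP18, of the small subunit processome, were called lower at both 1 and 6 h and did not return: RSL1D1 was at -1.49 and -1.44, and UTP18 at -1.35 and -1.20. NOL9, a kinase of ribosomal RNA processing, was late like NOP16, with -0.06 at 1 h and -1.11 (adjusted p = 0.00226) at 6 h. POP5, a subunit of RNase P and RNase MRP, was at -1.35 (adjusted p = 0.00652) at 6 h, a call lost with no filter (0.053). Its mean level was 6.01 at 0 h and 4.67 at 6 h, the latter below the filter level.

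POLR1D, a subunit shared by RNA polymerases I and III, was the 1 gene of this list called higher at 6 h, by 0.54 (adjusted p = 0.015). Its means were 8.70, 8.69, 8.53, 8.80 and 9.24, and the call was lost without either array of 0 h (0.0603 and 0.0688) or 6 h replicate 1 (0.0755) and with no filter (0.0519). NPM3 and PELP1 were called higher at 1 h, by 0.33 (adjusted p = 0.0458) and 0.29 (adjusted p = 0.0492). Leaving out any 1 of the 10 arrays ended both calls, with adjusted p between 0.0533 and 0.214.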

How the data were processed

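RNA of 10 samples was read on Affymetrix human genome arrays. The deposited values are scores without a stated scale: the submitters' processing notes name GCRMA, with no version. Their square roots spanned the range of log2 intensities and were read as log2; the sources used here do not give the authors' transformation. Depth has no meaning for arrays, and 2 replicates at each time limit the precision. The 68 control probe sets were left out, and 4276 of 22215 others passed the filter (log2 5, a deposited score of 25, on at least 2 arrays). Time was fitted with limma 3.58.1 in R 4.3.3 (lmFit, eBayes; residual df 5), with Benjamini-Hochberg adjustment over all tested probe sets in each comparison and a threshold of 0.05. The scripts were tested on simulated data. A member was described by its brightest tested probe set; values on every array were given for members called against 0 h or with probe sets that went apart. Of the other pathway genes, up to 4 in each direction with the largest moderated t at 1 h and at 6 h were named; all values of theirs come from the same fit. The members and lists were chosen with earlier results of these data known, and comparisons of 3 h with 1 h and 6 h with 3 h were added after seeing the data. Equal medians, another quantile normalization, no or a higher filter (log2 7), a floor at log2 5, log2 of the scores (the other scale), a replicate block, the 18S level as a covariate and leaving out each array were tried.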

Additional observations from a re-analysis of the deposited data

How the results depend on the processing

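Counts are member probe sets called, of the 25 tested, unless stated. With the 18S level as a covariate none was called lower at 0.5, 3 or 6 h (0) and 2 at 1 h; none was higher at 0.5, 1 or 3 h (0). From 1 h to 6 h 3 were lower, and 9 rather than 15 passed the F test over the 5 times. With no filter, which tests all 40 probe sets of the members, the counts called lower were 2, 5 and 4 at 0.5, 1 and 3 h and 3 from 1 h to 6 h, and 2 were higher at 0.5 h and 0 at 3 h. A filter at log2 7 left 5 lower at 1 h and 5 at 3 h. With equal medians 6, 6 and 2 were higher at 1, 3 and 6 h, and with quantile normalization 2, 4 and 1, with 5 lower at 3 h. On the log2 scale of the deposited scores 0 were higher at 3 h. Of other pathway genes, those called lower in order of time were 1, 5, 3 and 5 with no filter, 0, 0, 0 and 0 with the covariate, 6, 7 and 5 at 1, 3 and 6 h with the higher filter, 8 and 7 at 3 and 6 h with equal medians, and 9 at 3 h with quantile normalization. Leaving out 1 array gave 2 to 7, 5 to 8, 3 to 9 and 6 to 10 lower in order of time, 0 to 1 higher at 0.5, 1 and 3 h and 0 at 6 h, 3 to 6 lower and 3 to 4 higher from 1 h to 6 h, and 11 to 15 in the F test; for other pathway genes 0 to 7, 7 to 14, 5 to 12 and 6 to 15. Adding the shared probe sets, chosen after seeing the data, gave 7, 11, 11 and 12 lower. Arrays of the same replicate number showed no strong shared shift: deviations from the time means correlated between -0.231 and 0.147 over 10 pairs of times. The labels do not say whether equal numbers belong together, and these correlations cannot decide it. With the replicate block 5, 8, 8 and 11 were lower in order of time, 7 from 1 h to 6 h, and 16 passed the F test; it added the calls of BYSL and NOP10 as lower at 6 h (adjusted p = 0.0377 and 0.038). The causes of these differences were not tested. No called change turned its direction.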
